A study of Mus musculus with 6 samples.

Results

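The Notch genes followed here were 10 of the 21761 genes in the count table: the receptors Notch1, Notch2, Notch3 and Notch4, the ligands Jag1 and Jag2, the transcription factor Rbpj, and the targets Hes1, Hey1 and Dtx1. They were chosen by name, and all 10 had a row. The cells were long-term haematopoietic stem cells (LT-HSCs), which sit in the marrow and can renew all blood lineages. They came from chimeric mice, in which donor marrow of the CD45.2 allotype had been grafted into lethally irradiated CD45.1/2 hosts. IMP1 donors carried Igf2bp1, the gene of the RNA-binding protein IMP1, as a Cre-dependent knock-in at Rosa26, with the genotype Rosa26 I/+;Mx1-Cre tg/+. Control donors were Rosa26 +/+;Mx1-Cre tg/+, so both groups carried the Cre transgene and both were given poly(I:C). This double-stranded RNA induces interferon, which drives the Mx1 promoter of the Cre in blood cells and in other interferon-responsive cells. Donor cells with the surface phenotype LSK CD150+ CD48- CD34- were sorted in lots of 200, 8 weeks after that treatment ended, and each lot gave 1 library, 3 per group. The study calls these biological replicates. The sources used here do not give the age of the mice or how many stood behind each library. The CD45.1/2 hosts carry CD45.2 themselves, and the stated gate names CD45.2+ with no word on CD45.1.

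Notch receptors are cell-surface proteins that are switched on by ligands of the Jagged and Delta-like families on a neighbouring cell. Ligand binding lets ADAM proteases and then gamma-secretase cut the receptor, and the freed intracellular domain enters the nucleus. There it joins RBPJ and a Mastermind coactivator to switch on genes such as Hes1 and Hey1, which encode repressors of transcription. In blood the pathway is best known for committing progenitors to the T cell lineage, through Notch1, and its part in adult stem cells has been studied mainly through Notch2, Jag1 and Hes1.

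The libraries held 25749898 to 27338450 counts in Control and 50220629 to 67083116 in IMP1 cells, so depth differed with genotype, on average 2.26-fold. Igf2bp1 counts were 0, 0 and 1 in Control against 1870, 2084 and 2016 in IMP1 libraries. LT-HSC markers were present in every library. Their summed level over 9 genes was higher in IMP1 cells, at 1862 to 2144 CPM against 1546 to 1764 CPM in Control. None of the 9 was called at an edgeR adjusted p under 0.05 (0 of 9), where 0.211% of the 12807 genes tested were. CPM are counts per 1e6 counts of a library after scaling by the trimmed mean of M values (TMM). Of the genes the sort gated against, Cd48 lay between 1.86 and 26.8 CPM and overlapped between groups. Cd34 was at 263, 317 and 270 CPM in Control and 212, 141 and 151 CPM in IMP1 libraries, lower in all of them (edgeR adjusted p = 0.110). Some libraries held transcripts of other lineages. The 5 erythroid markers summed to 21.7 to 23.5 CPM in Control and 9.69 to 228 CPM in IMP1 libraries, and IMP1 2 held the B cell genes Cd79a at 16.9 and Ebf1 at 14.2 CPM, against at most 0.0376 and 0.0941 CPM elsewhere. Endothelial cells, which express Notch4, Jag1, Jag2 and Dll4, were looked for with 6 markers. Their defining gene Cdh5 had 0 counts in all 6 libraries, and Kdr and Cldn5 lay at or under 5.44 CPM. Esam (133 to 210 CPM), Emcn (24.7 to 81.0 CPM) and Tie1 (24.5 to 61.1 CPM), which stem cells also express, were present in every library, with Esam lower in all IMP1 libraries (edgeR adjusted p = 0.137). The summed level of the list overlapped between the groups, at 244 to 352 CPM in Control and 244 to 281 CPM in IMP1 cells. The 7 stromal and osteoblast markers summed to 25.6 to 33.2 CPM in Control and 35.3 to 39.6 CPM in IMP1 cells, without overlap. Lepr supplied most of that sum, at 30.3, 23.0 and 27.9 CPM in Control and 25.5, 30.7 and 27.2 CPM in IMP1 libraries. Its values overlapped between the groups (edgeR adjusted p = 0.963). Pdgfra and Bglap were at 0 in all 6 libraries, and Cxcl12 in all but IMP1 3 (2.50 CPM). Pdgfrb was at 2.63, 2.57 and 3.16 CPM in Control and 9.69, 7.81 and 6.83 CPM in IMP1 libraries (edgeR adjusted p = 0.254). The part of these transcripts in the results was not tested. In such bulk libraries, fewer cells of a type and less RNA per cell cannot be told apart.

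Promoter windows of 300 bases were on record for 8 of the 10 genes. Hes1 and Hey1 had none. RBPJ binds DNA at a core of TGGGAA, and the window of a single gene, Rbpj itself, held it on either strand, where 25.6% of all 32851 RefSeq windows did. No window of the 8 genes held the longer GTGGGAA, which contains the core and occurred in 6.38% of all windows. The N box CACNAG, a site described for HES proteins, was present in 4 of the 8, against 42.5% of all windows. These matches describe letters in a window and say nothing about binding. The windows of Notch2 and Jag2 are shown because these receptor and ligand genes had the lowest p-values of the group, and that of Rbpj because it holds the core. Each runs 5′ to 3′ along the gene, from 250 bases before to 50 bases after the annotated start, with the core and its reverse complement TTCCCA in capitals. They are RefSeq sequence of GRCm38.p6 at chr3:98013288-98013587 (plus strand) for Notch2, chr12:112929446-112929745 (minus strand) for Jag2 and chr5:53590096-53590395 (plus strand) for Rbpj.
Notch2: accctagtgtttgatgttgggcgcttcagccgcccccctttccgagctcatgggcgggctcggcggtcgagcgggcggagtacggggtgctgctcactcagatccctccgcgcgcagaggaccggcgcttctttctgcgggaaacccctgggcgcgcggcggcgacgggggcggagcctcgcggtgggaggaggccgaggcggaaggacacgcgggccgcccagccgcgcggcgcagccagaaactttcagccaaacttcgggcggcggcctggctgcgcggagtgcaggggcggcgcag
Jag2: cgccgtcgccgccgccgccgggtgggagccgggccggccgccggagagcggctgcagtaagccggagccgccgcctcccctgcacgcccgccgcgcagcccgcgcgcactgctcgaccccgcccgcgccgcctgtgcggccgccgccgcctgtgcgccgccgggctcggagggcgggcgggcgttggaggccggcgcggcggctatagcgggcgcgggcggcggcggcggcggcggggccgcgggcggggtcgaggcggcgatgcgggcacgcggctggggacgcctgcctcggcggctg
Rbpj: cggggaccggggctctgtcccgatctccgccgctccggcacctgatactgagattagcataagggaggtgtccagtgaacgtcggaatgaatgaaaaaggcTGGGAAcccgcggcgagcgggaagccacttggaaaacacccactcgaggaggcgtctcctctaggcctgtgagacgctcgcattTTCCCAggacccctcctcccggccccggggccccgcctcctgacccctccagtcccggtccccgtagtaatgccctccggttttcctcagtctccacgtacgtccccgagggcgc
The Jag2 window was 86.0% G and C, that of Notch2 73.0% and that of Rbpj 64.7%. In the Rbpj window the cores lay 149 and 65 bases before the annotated start, the second on the opposite strand.

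Notch2 and Rbpj had the highest levels of the 10 genes in both genotypes, per kb of the longest annotated transcript and ordered by the mean over all 6 libraries. Notch2 stood at 17.6 ± 1.91 CPM per kb in Control and 27.3 ± 4.59 in IMP1 cells (SD, n = 3), and Rbpj at 18.1 ± 0.583 and 22.0 ± 4.53. Their ranges over 6 libraries overlapped. Next in order came Hes1 (0.885 ± 0.456 and 3.04 ± 0.775), Jag1 (0.886 ± 0.431 and 2.65 ± 1.72) and Notch1 (1.27 ± 0.233 and 2.02 ± 0.214), then Jag2, Notch3, Notch4 and Hey1, with Dtx1 at 0. By the Control means alone, Rbpj lay above Notch2, and Notch1 above Jag1 and Hes1. The gap between Rbpj and Hes1 was the 1 step in this order at which the ranges of neighbours did not overlap. Among the 4 receptors, Notch2 made up 90.5% to 93.4% of the summed level per kb of a library, and Notch1 5.84% to 7.40%. Jag1 made up 87.7% to 93.9% of the summed level of the Jagged ligands in Control libraries and 62.2% to 86.1% in IMP1 libraries, and these ranges did not overlap. The order depends on the length used. The shortest annotated coding transcript is 512 bases for Notch1 and 742 for Jag2, against longest ones of 9488 and 5106. For Notch2 and Jag1 the length is unchanged, so genes are then divided by very unlike lengths. Whether reads came from such short transcripts was not tested. Per kb of the shortest transcript, Notch1 (23.6 ± 4.31 and 37.5 ± 3.96) stood above Notch2 (17.6 ± 1.91 and 27.3 ± 4.59) in every library. Jag2 then had the higher mean of the Jagged genes in IMP1 cells and Jag1 in Control. On that length Notch2 made up 36.2% to 44.4% of the receptor level and Jag1 51.0% to 69.1% of the Jagged level in Control and 19.3% to 47.4% in IMP1 libraries.

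**Figure D1:**
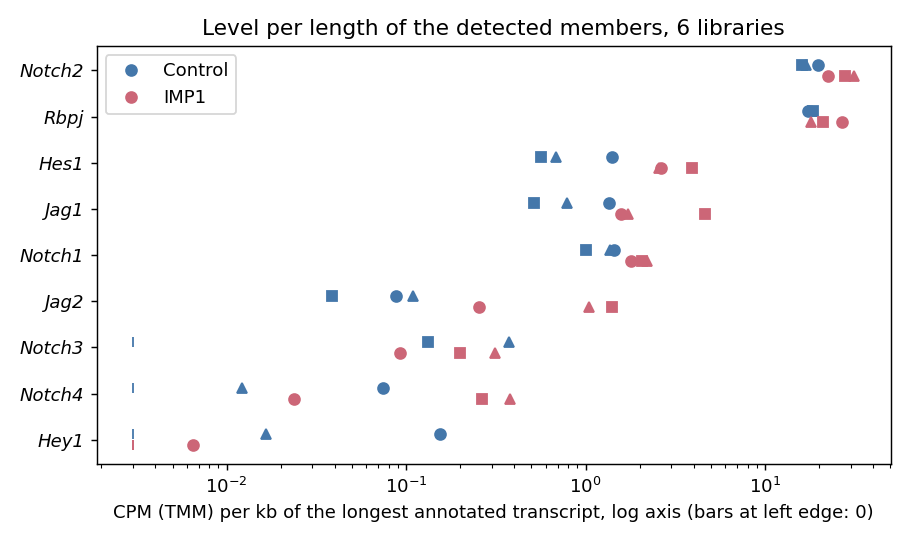
Level of the 9 detected genes in each of the 6 libraries, as TMM-scaled CPM per kb of the longest annotated transcript on a log axis, with libraries 1, 2 and 3 of a group as circles, squares and triangles and values of 0 as bars at the left edge. Notch2 and Rbpj lie apart from all others on this length, between 16.1 and 31.5 CPM per kb.

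The comparison of IMP1 with Control cells asks what re-expressing IMP1 changed in adult LT-HSCs. In it, 8 of the 10 genes passed the filter on low counts. All 8 had a positive fitted change, where 52.2% of all genes did. The share was 66.6% for long, well-covered genes, with transcripts no shorter than that of Jag2 and mean log2 CPM over 3. That class holds Notch1, Notch2 and Rbpj, so it is no matched background for all 8. Jag1, Jag2, Hes1, Notch3 and Notch4 fall short of its level, and the Hes1 transcript, at 1468 bases, is also shorter. None of the 8 passed the threshold, a Benjamini-Hochberg adjusted p under 0.05 over all genes in edgeR's quasi-likelihood test (0 of 8). Of the 12807 genes tested 0.211% did, and 0.0703% upward. With edgeR's legacy = FALSE setting none was called either, against 0.383% of all genes and 0.102% upward. At an unadjusted p under 0.05 there were 4, namely Notch2, Jag2, Jag1 and Hes1, all higher in IMP1 cells, where 14.3% of all genes passed in either direction, 6.67% upward and 7.63% downward. The libraries of the groups did not overlap for 5, these 4 and Notch1, where 21.9% of all genes did not overlap and 10.7% did so upward. The median log2 fold change of the 8 tested genes was 1.12, against 0.03 over all genes. Jag2 reached the filter in all 3 IMP1 libraries and in 2 of the Control libraries, Notch4 in 2 and 1, and Notch3 in 3 and 2. A gene that enters mainly through 1 group had to differ, so these counts are descriptions. DESeq2 called 2 of the genes, Notch2 and Jag2, where it called 6.42% of all genes and 2.82% upward. Of the 8 genes limma-voom called 0, where it called 11 of all 12807.

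**Figure D2:**
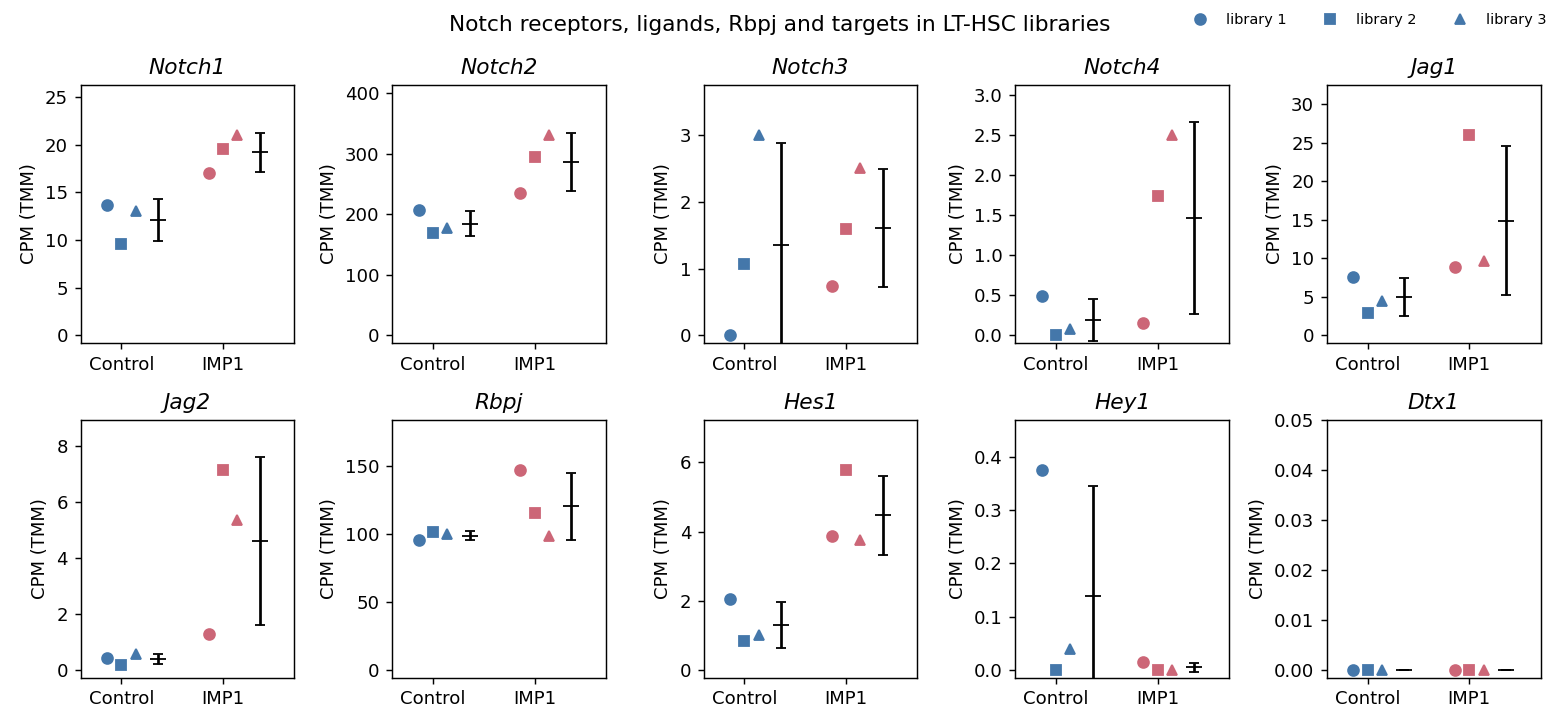
TMM-scaled CPM of the 10 Notch genes in each library, with its own axis from 0 for each gene, symbols for libraries 1 to 3 of a group and a bar for the mean ± SD (n = 3), which is drawn past 0 where the SD exceeds the mean. All 3 IMP1 libraries lie above all 3 Control libraries for Notch1, Notch2, Jag1, Jag2 and Hes1.

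Of the receptors, Notch2, the main one by level, stood at 207, 169 and 177 CPM in the Control libraries and 235, 294 and 331 CPM in the IMP1 libraries. Every IMP1 library lay above every Control library. The group means were 184 ± 20.1 and 287 ± 48.2 CPM (SD, n = 3), a 1.55-fold difference (log2 fold change 0.64, SE 0.15, edgeR unadjusted p = 0.00306, adjusted p = 0.117). DESeq2 gave an adjusted p of 0.00455. Notch1, the receptor of T cell commitment, was at 13.7, 9.57 and 13.0 CPM in Control and 17.0, 19.5 and 21.0 CPM in IMP1 libraries, again without overlap. Its difference of 1.59-fold had a wider error for its level (log2 fold change 0.67, SE 0.33, edgeR adjusted p = 0.419). Both have long transcripts, of 10500 and 9488 bases, and fold changes followed transcript length in these libraries. For genes with a mean log2 CPM over 3, split by length into 4 bins of near-equal size, the median was −0.17 in the bin of shortest transcripts and 0.17 in that of longest. It was 0.25 for the 257 genes with transcripts at least as long as that of Notch1. With the trend on length and GC content removed, the log2 fold change of Notch2 was 0.29 (adjusted p = 0.452) and that of Notch1 0.33 (adjusted p = 0.746).

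**Figure D3:**
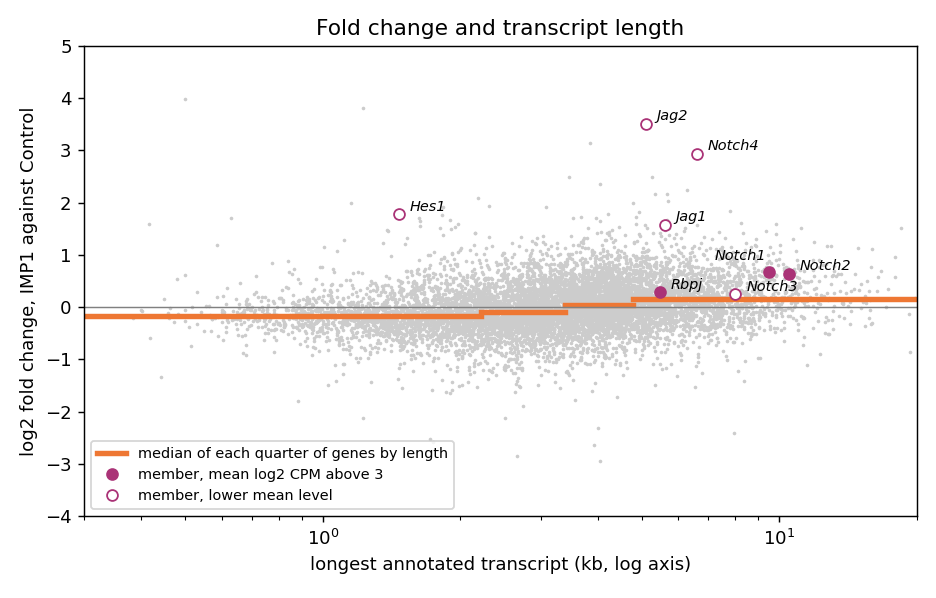
Log2 fold change of each gene with a mean log2 CPM above 3 against the length of its longest annotated transcript in kb on a log axis, with the 8 tested Notch genes marked, filled where they pass that level and open where they do not. Genes beyond the axes are not drawn. Lines give the median of each of 4 length bins, from −0.17 to 0.17, and Notch2 and Notch1 lie in the longest bin at 0.64 and 0.67.

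Notch3 and Notch4, receptors best known from vascular smooth muscle and endothelium, lay at or under 3.00 CPM in every library. Notch3 had 0 counts in Control 1 and Notch4 had 0 in Control 2. Notch3 was at 0, 1.07 and 3.00 CPM in Control and 0.737, 1.60 and 2.50 CPM in IMP1 libraries. These overlapped throughout (log2 fold change 0.25, SE 1.47, edgeR adjusted p = 0.958). Notch4 had 13, 0 and 2 counts in Control and 10, 121 and 130 in IMP1 libraries, or 0.488, 0 and 0.0800 against 0.157, 1.74 and 2.50 CPM. IMP1 2 and IMP1 3 were high, while IMP1 1 lay within the Control range (log2 fold change 2.93, SE 1.56, edgeR adjusted p = 0.456). The value was 5.11 without Control 1 and 2.31 without IMP1 3.

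The Jagged ligands lay higher in all IMP1 libraries, and Jag2 had the largest fitted change of the 8 genes, though it did not pass the threshold. It had 12, 5 and 14 counts in Control and 83, 497 and 279 in IMP1 libraries, which is 0.451, 0.198 and 0.560 against 1.30, 7.16 and 5.37 CPM. The lowest IMP1 library was IMP1 1, and it still lay above all Control libraries. The means were 0.403 ± 0.186 and 4.61 ± 3.00 CPM (SD, n = 3), an 11.4-fold difference (log2 fold change 3.51, SE 0.97, edgeR unadjusted p = 0.00672, adjusted p = 0.167). DESeq2 gave an adjusted p of 0.00892. With all libraries thinned to the smallest total the log2 fold change was 3.49, and 3.32 once the trend on length and GC was taken out. Jag1, a ligand also made by marrow endothelium and stroma, was at 7.62, 2.89 and 4.40 CPM in Control and 8.86, 26.0 and 9.70 CPM in IMP1 libraries. IMP1 2, the library with B cell transcripts, stood well above the rest, and the other IMP1 libraries lay just above Control 1. The log2 fold change of 1.58 (SE 0.61, edgeR unadjusted p = 0.0313, adjusted p = 0.297) was 0.90 without IMP1 2.

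Rbpj, the DNA-binding partner of the cut receptor, was at 95.5, 102 and 100.2 CPM in Control and 148, 116 and 98.6 CPM in IMP1 libraries, and the groups overlapped through IMP1 3 (log2 fold change 0.28, SE 0.17, edgeR adjusted p = 0.519). Taking out the trend on length and GC left 0.09. Rbpj has annotated pseudogenes, and whether reads were shared with them was not tested.

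Of the targets, Hes1, a repressor that Notch switches on directly, had 55, 21 and 25 counts in Control and 247, 401 and 195 in IMP1 libraries. In CPM these were 2.07, 0.831 and 1.00 against 3.87, 5.78 and 3.75, without overlap. The means of 1.30 ± 0.669 and 4.47 ± 1.14 CPM (SD, n = 3) differed 3.44-fold (log2 fold change 1.78, SE 0.75, edgeR unadjusted p = 0.0434, adjusted p = 0.331). Its transcript of 1468 bases falls in the length range of the bin of shortest transcripts. The log2 fold change was 1.93 after the trend on length and GC was removed. Hes1 lies under the mean log2 CPM of 3 above which that trend was fitted. Hey1, a related repressor, had 10, 0 and 1 counts in Control and 1, 0 and 0 in IMP1 libraries and did not pass the filter on low counts. Its log2 fold change was −4.57 in DESeq2 (SE 3.93, unadjusted p = 0.245) and −4.11 in edgeR without that filter (SE 2.27, adjusted p = 0.484). The Control rate was 24.8 times that of IMP1 cells by counts, and it rested on Control 1. Its exact 95% counting interval of 3.61 to 1069 leaves out the spread between libraries. Dtx1, a Notch-induced ubiquitin ligase gene of lymphoid cells, had 0 counts in every library, which allows at most 0.117 CPM in the shallowest library, at a floor of 3 counts.

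**Figure D4:**
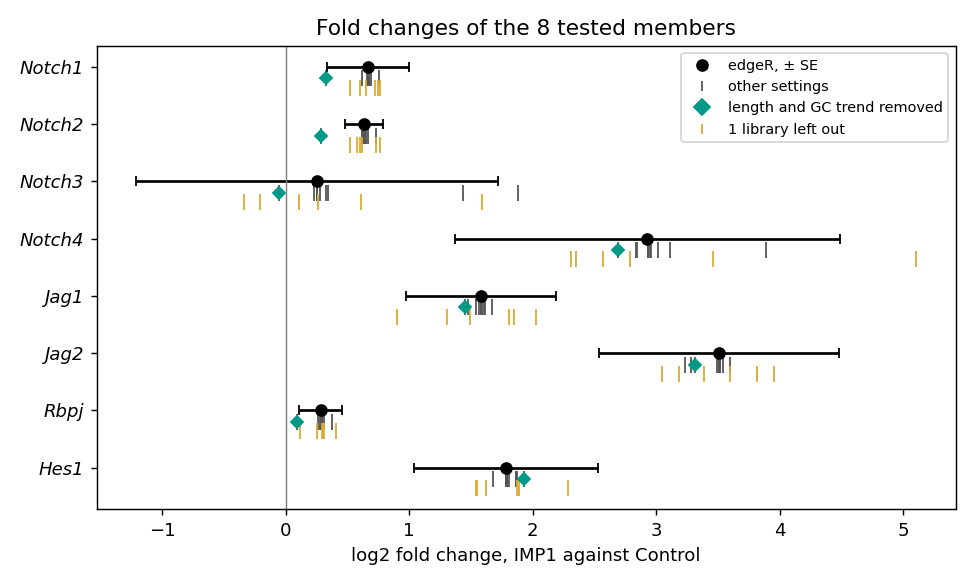
Log2 fold change of IMP1 against Control for the 8 tested Notch genes, with the edgeR estimate ± SE as points and the estimates under other settings as ticks below them and those without the length and GC trend as diamonds. Removing the length and GC trend brings Notch2 from 0.64 to 0.29 and leaves Jag2 at 3.32, and the estimates of Notch3 lie on both sides of 0. Jag1, Jag2, Hes1, Notch3 and Notch4 lie under the level of the genes on which that trend was fitted.

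The rest of the pathway, 67 further genes listed by role with earlier results known, did not share a direction. Of these, 52 were tested, 28 with positive and 24 with negative log2 fold changes and a median of 0.05, against 0.03 over all genes. None was called by edgeR (0 of 52) or limma-voom, where edgeR called 0.211% of all genes and limma-voom 11 of all 12807. At an unadjusted p under 0.05 in edgeR there were 11 of the 52 (6 positive, 5 negative), where 14.3% of all genes passed. DESeq2 called 3, where it called 6.42% of all genes, namely Myc, Dtx3 and Ccnd1.

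Delta-like ligands were close to absent. Dll1 counts were 1, 0 and 0 in Control and 15, 8 and 13 in IMP1 libraries, 16.0 times the Control rate (95% counting interval 2.69 to 647). Dll4 had 0 counts in Control and 1, 62 and 5 in IMP1 libraries, at least 10.04-fold higher over the group by the floor of 3 counts, with nearly all counts from IMP1 2. Neither was tested. The non-canonical ligand gene Dlk1, of an imprinted cluster, stood at 0.420 ± 0.295 and 0.924 ± 0.251 CPM (edgeR adjusted p = 0.623), and Dlk2 had 0 counts in all libraries.

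Of the proteases and modifying enzymes, the most abundant of each role are given with those whose groups did not overlap. Levels within a role varied widely, and the Fringe gene Lfng had means of 1.59 and 2.00 CPM. Adam10, which makes the first cut in the ligand-bound receptor, was at 354, 337 and 303 CPM in Control and 380, 382 and 439 CPM in IMP1 libraries, without overlap (log2 fold change 0.27, SE 0.11, edgeR adjusted p = 0.307). With the trend on length and GC removed, the log2 fold change of Adam10 was 0.11 (edgeR adjusted p = 0.733). Psenen, a subunit of gamma-secretase, stood at 145 ± 13.6 and 137 ± 5.01 CPM. Among genes of receptor glycosylation, the Fringe gene Mfng was at 99.5 ± 17.1 and 82.8 ± 14.8 CPM and the glucosyltransferase gene Poglut1 at 70.0 ± 27.8 and 90.6 ± 5.71 CPM. Mib1, the ubiquitin ligase that activates ligands in the sending cell, was at 159, 178 and 188 CPM in Control and 119, 152 and 125 CPM in IMP1 libraries, lower without overlap (−0.41, SE 0.15, edgeR adjusted p = 0.268). Removing the same trend gave −0.76 for Mib1 (edgeR adjusted p = 0.109). Neurl1b, of the other family of such ligases, stood at 12.7 ± 6.94 and 12.1 ± 8.46 CPM.

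Deltex relatives of Dtx1 had fitted values of opposite sign. Dtx3 was at 21.6, 26.0 and 22.6 CPM in Control and 39.9, 62.4 and 48.6 CPM in IMP1 libraries, higher in all (log2 fold change 1.10, SE 0.25, edgeR adjusted p = 0.104, DESeq2 adjusted p = 0.00132). Dtx2 was at 3.57, 8.35 and 6.32 CPM in Control and 1.41, 2.81 and 0.963 CPM in IMP1 libraries, lower in all (−1.81, SE 0.74, edgeR adjusted p = 0.314). Itch, a ubiquitin ligase that turns over Notch, stood at 44.1 ± 15.4 and 64.7 ± 11.3 CPM (edgeR adjusted p = 0.437).

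In the nucleus, the coactivator gene Maml3 of the Mastermind family was at 3.19, 3.80 and 5.12 CPM in Control and 12.5, 8.71 and 8.89 CPM in IMP1 libraries (log2 fold change 1.31, SE 0.49, edgeR adjusted p = 0.283). Its relative Maml2 stood at 80.2 ± 39.8 and 75.8 ± 16.0 CPM, and Snw1, a cofactor that binds RBPJ, at 268 ± 12.6 and 255 ± 23.1 CPM. Corepressors again differed in sign, with the histone demethylase gene Kdm5a at 154 ± 6.20 and 204 ± 27.7 CPM (0.40, SE 0.14, edgeR adjusted p = 0.246) and the deacetylase gene Hdac1 at 327 ± 18.7 and 253 ± 46.6 CPM (−0.37, SE 0.14, adjusted p = 0.300). Kdm5a was at 0.04 once that trend on length and GC was taken out.

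Other targets gave no common picture. Hes6, which counteracts Hes1, had means of 26.2 ± 5.51 and 17.3 ± 8.04 CPM (log2 fold change −0.60, edgeR adjusted p = 0.562). The corepressor gene Tle3, whose protein binds HES proteins, stood at 12.8 ± 3.68 and 8.42 ± 1.48 CPM. Hes5 had 5, 5 and 0 counts in Control and 82, 36 and 6 in IMP1 libraries, and did not pass the filter on low counts. Its means were 0.129 ± 0.111 and 0.640 ± 0.595 CPM, with overlap through IMP1 3. Hey2 had 0 counts in all libraries. The T cell genes Gata3 (78.9 ± 5.02 and 71.9 ± 16.9 CPM) and Ptcra (4.44 ± 0.152 and 4.24 ± 0.594 CPM) differed by less than the SD of the IMP1 libraries, and Tcf7 had 0 counts in all libraries. Of the growth genes, Ccnd1, which encodes cyclin D1, was at 3.72, 3.84 and 4.24 CPM in Control and 14.7, 8.07 and 17.6 CPM in IMP1 libraries (1.78, SE 0.48, edgeR adjusted p = 0.154, DESeq2 adjusted p = 0.00674). Myc had the lowest p of the 67 genes and was lower, at 382 ± 16.0 against 221 ± 43.1 CPM (−0.79, SE 0.15, edgeR adjusted p = 0.0760). Igf1r was at 80.5 ± 11.2 and 113 ± 10.8 CPM (0.49, SE 0.16, adjusted p = 0.246), with 0.14 after removal of the length and GC trend, and Ccnd3 at 148 ± 15.3 and 141 ± 11.5 CPM.

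**Figure D5:**
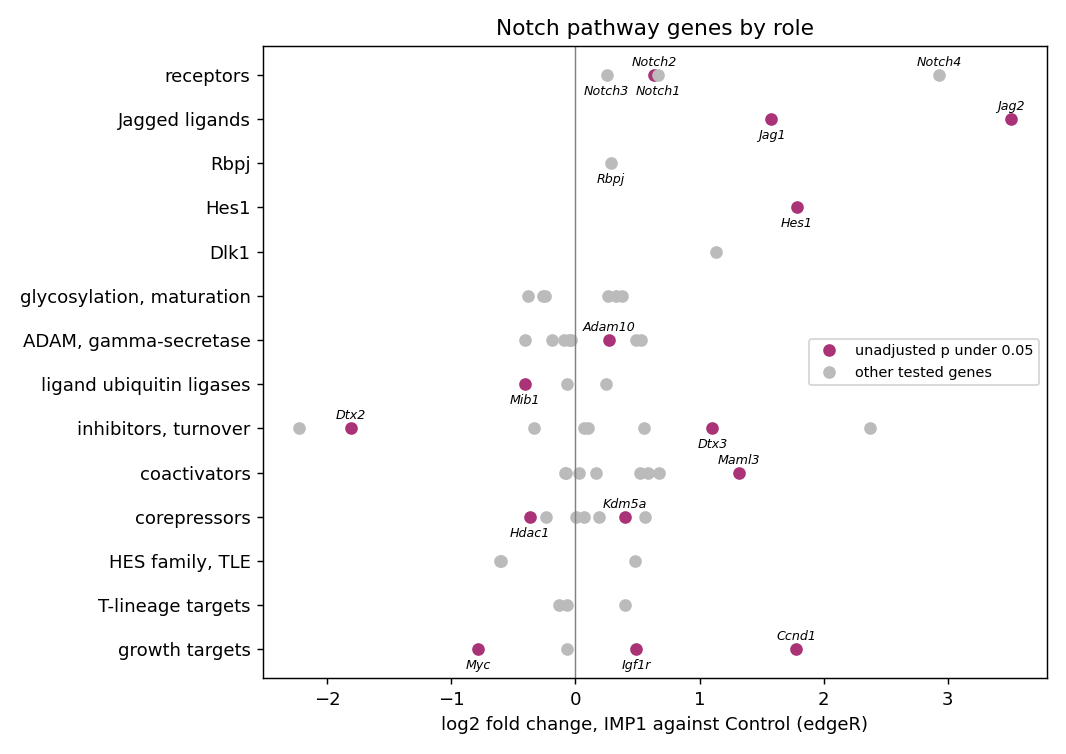
Log2 fold change of the Notch pathway genes reported here by role, coloured where the unadjusted p was under 0.05. The Jagged ligands and Hes1 lie to the right at 1.58, 3.51 and 1.78, while the enzymes, cofactors and other targets lie on both sides of 0.

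Genes whose profile over the 6 libraries was most like that of the 2 most abundant Notch genes were found by the root mean square difference of centred log2 CPM. For Notch2 the nearest were Rbl2, which encodes a pocket protein of the retinoblastoma family (0.0606), Sec16a (0.0873) and Cab39 (0.0975). For Rbpj they were Ywhag (0.0376), Mier3 (0.0511) and Sec24a (0.0646). None of these 6 genes was called, with edgeR adjusted p between 0.178 and 0.688, where 0.211% of all genes tested were called.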

How the data were processed

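The table deposited by the authors holds unnormalized counts of reads by Entrez identifier, 1 column per library per the file headers, and all 6 columns matched a library by name (0 unused). TopHat2 2.0.10 and mm9 are named in the submitters' processing notes. No source used here gives the counting program or its strand setting, so genes that overlap a neighbour (Notch1, Notch2, Notch3, Jag2 and Hey1 do in the reference) are uncertain, as may be Rbpj, which has pseudogenes. Symbols came from RefSeq GRCm38.p6 and matched 21615 of 21761 identifiers. Lengths came from GENCODE M21. The build differed from mm9, so reference coordinates are given only for reference sequence. 

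Counts were tested with edgeR 4.0.16 in R 4.3.3 (quasi-likelihood F test, default settings, TMM scaling, filterByExpr filter, genotype as the single term, 6 libraries, 12807 genes). SE is the absolute log2 fold change over the square root of F. Intervals and floors (3 counts) cover counting error only. Alternatives were DESeq2 1.42.0, limma-voom (limma 3.58.1), other scalings and filters, edgeR with legacy = FALSE, thinning to 25749898 counts, removal of a loess trend on length and GC content (span 0.4), the replicate number as a block and each library left out. On simulated counts for 12591 genes in this design, recovery was 29.3% for a true change of 1 on the log2 scale and 72.6% for a change of 3, with 2 false among 100 calls. No libraries were duplicates (chi-square per degree of freedom at least 61.0).

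The 10 genes, the list of 67 and the marker lists were chosen with earlier results of these data known. Named from the list were genes with an unadjusted p under 0.05 and no overlap between groups, and the 2 most abundant of each role. Outside that rule, Lfng was named, as were Hes5, Hey2, Tcf7 and Neurl1a after their values were seen. A gene that this rule names is not reported here.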

Additional observations from a re-analysis of the deposited data

How the results depend on the processing

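Over 17 alternatives the fitted direction of Notch1, Notch2, Notch4, Jag1, Jag2, Rbpj and Hes1 was the same wherever they were tested, and their adjusted p went as low as 0.00455 (Notch2, DESeq2). The number of the 8 tested genes called, 0 in edgeR, was 2 in DESeq2 and 0 in the other 16 alternatives, and that of the wider list, 0, was 3 in DESeq2 and 1 (Myc) with the strict filter. Over all genes, 27 calls became 880 in DESeq2, 127 with the strict filter, 49 with legacy = FALSE, 16 without scaling, 13 with the length and GC trend removed, 11 in limma-voom and 0 to 2 with 1 library left out. Without scaling, 9 of the 16 were higher, against 9 of 27. The 4 Notch genes at an unadjusted p under 0.05 became 1 in limma-voom, and 2 to 5 with 1 library left out: 2 without Control 2, without Control 3 or without IMP1 2. Those alternatives were added after seeing the data, as was leaving out libraries for the count without overlap, which stayed at 5 to 6 while 31.4% to 33.0% of all genes then did not overlap.

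Same-numbered libraries did not deviate together (correlations −0.0083 to 0.031, and not every library correlated best with its own number), so the numbers are not taken as pairs. With the replicate number as a block, 4 genes were called over all genes, 0 Notch genes, and 2 Notch genes had an unadjusted p under 0.05.

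Some fitted values near 0 changed sign. Notch3 was −0.057 with the trend removed and −0.33 to 1.59 with 1 library left out. Without scaling, Psenen was 0.0026, Snw1 0.021, Maml2 0.0085, Ccnd3 0.024, Neurl1b 0.016 and Ptcra 0.025. With the trend removed, Psenen was 0.089 and Ptcra 0.086. Maml2 was 0.036 in limma-voom and 0.059 with the block, and Ptcra 0.0072 after thinning. With 1 library left out, Maml2 ranged from −0.44 to 0.15, Neurl1b from −0.52 to 0.41 and Ptcra from −0.19 to 0.0050. With the shortest coding transcript as length (512 bases for Notch1 but 10500 for Notch2), Notch1 ranked above Notch2 and Jag2 above Jag1 by the mean over all libraries. On that length 3 steps in the order of levels separated neighbours in place of 1. The cause was not tested for any other change. Depth limits what can be said of Hey1, Dtx1, Dll1 and Dll4.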

Other observations

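Neuralized genes, whose products act on Notch ligands like Mib1, differed strongly between libraries of one genotype. Neurl1a counts were 1, 0 and 120 in Control against 1, 0 and 148 in IMP1 libraries, so nearly all of its counts came from Control 3 and IMP1 3. It did not pass the filter on low counts and was chosen after its values were seen. Neurl1b stood at 16.6, 4.71 and 16.8 CPM in Control and 18.6, 2.54 and 15.1 CPM in IMP1 libraries, lowest in library 2 of each group.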
